A study of Mus musculus with 6 samples.

Results

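A set of 10 genes of the megakaryocyte and platelet programme were followed in sorted mouse bone marrow haematopoietic stem cells (HSCs), the rare cells that sustain all blood lineages. They were chosen by gene name: Vwf, Pf4, Ppbp, Selp, Gp1ba, Gp1bb, Gp9, Gp6, Clec1b and Nfe2. All 10 have a row among the 35275 genes of the deposited FPKM table (counted reads scaled for gene length and library size), 9 are among the 18368 genes of the deposited count table, and the same 9 passed the filter on low counts. The 6 RNA-seq libraries were made from about 2000 sorted HSCs each, of adult mice, 3 with the genotype Ramp1+/+ (wild type) and 3 with the genotype that the labels write as Ramp-/- and title as Ramp1 mutant. Ramp1 is the accessory subunit of the receptor for the neuropeptide CGRP, and the comparison asks how HSC transcripts differ without it. The allele, the mouse strain, the sorting markers and the number of animals behind each library are not given in the sources used here, so p-values measure only the spread between these libraries.

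Megakaryocytes are the marrow cells that shed platelets. HSCs already carry low amounts of some platelet transcripts, a state called platelet priming, and a subset of HSCs marked by Vwf is known to favour the platelet lineage. The proteins fall into a few roles. Vwf and the chemokines Pf4 and Ppbp are stored in platelet alpha granules and released on activation, and Selp (P-selectin) moves from the granule membrane to the cell surface. Gp1ba, Gp1bb and Gp9 assemble, with Gp5, into the receptor that captures von Willebrand factor. Gp6 and Clec1b are activating receptors, for collagen and for podoplanin, and Nfe2 is the transcription factor subunit that platelet formation depends on.

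Promoter sequence was looked at because the genes share a lineage but differ widely in level. RefSeq (build GRCm38.p6) gave promoters for 8 of the 10 genes, and the 250 bases before the start of each were searched on both strands. The motifs used were AGATAA and GATAAG, which overlap each other and hold the core bound by GATA factors; AGGAAG, which holds the core bound by ETS factors such as Fli1; and TGAGTCA, the core that NF-E2 and AP-1 share. AGGAAG was found in 4 of the 8 promoters (Gp1ba, Gp9, Pf4 and Selp), each time on the opposite strand, and in 29.5% of all 32851 promoter windows of this length. GATAAG was found in 4 of 8 (Clec1b, Gp1ba, Gp6 and Gp9) against 6.55% of all windows. AGATAA was found in 1 of 8 (Gp6), against 9.99%, and TGAGTCA in 0 of 8, against 4.46%. The 150 bases before the start are shown for the 3 genes with an AGGAAG match closest to the start, all detected in every library. They are also shown for Gp6, which was listed at 0 in every library. Ppbp, Gp1bb and Clec1b had no AGGAAG match, and Ppbp and Gp1bb had none of the motifs. All of these had reads in every library as well, so the sequences shown set no matches against levels. Motif matches are in capitals.
Gp9, chr6:87777920-87778069, plus strand: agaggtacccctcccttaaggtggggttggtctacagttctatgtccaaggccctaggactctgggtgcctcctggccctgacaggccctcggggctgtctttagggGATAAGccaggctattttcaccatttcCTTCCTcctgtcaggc
Gp1ba, chr11:70638972-70639121, plus strand: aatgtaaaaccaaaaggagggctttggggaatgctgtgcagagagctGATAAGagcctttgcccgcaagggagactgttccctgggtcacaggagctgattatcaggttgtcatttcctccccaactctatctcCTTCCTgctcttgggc
Pf4, chr5:90772285-90772434, plus strand: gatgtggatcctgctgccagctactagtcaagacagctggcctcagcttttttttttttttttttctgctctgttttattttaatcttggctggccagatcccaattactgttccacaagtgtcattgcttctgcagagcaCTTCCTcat
Gp6, chr7:4397745-4397894, minus strand: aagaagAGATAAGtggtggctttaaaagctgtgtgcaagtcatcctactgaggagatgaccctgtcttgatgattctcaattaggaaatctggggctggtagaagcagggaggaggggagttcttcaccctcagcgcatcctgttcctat
In both Gp9 and Gp1ba the CTTCCT match spans bases 16 to 11 before the start, and in Pf4 bases 9 to 4. Positions in Gp9 are counted from the RefSeq start, just after base 87778069. The gene start given below for Gp9 is 87778136, so its positions depend on the start used. The GATAAG match begins 43 bases before the start in Gp9, 103 in Gp1ba, 143 in Gp6 and 188 in Clec1b, whose sequence is not shown. A match is a description of the letters and shows no binding.

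The libraries held between 22796771 and 26734561 counted reads. Ramp1 itself had 88.3 to 91.4 FPKM in the wild-type libraries and 1.35 to 3.53 FPKM in the mutant libraries (edgeR quasi-likelihood test: log2 fold change -5.17, SE 0.31, adjusted p = 0.00146), so no library went against its genotype label. All 12 genes listed as HSC and sort markers were detected in every library. They summed to 950.4 to 1145 FPKM in wild type and 944 to 1221 FPKM in mutant libraries. The sum includes Cd34 (147 to 189 FPKM), Flt3 (10.7 to 23.6) and Cd48 (7.17 to 19.2), which do not mark long-term HSCs. It is therefore not a measure of HSC identity alone. Cd48 was highest in replicate 1 of each genotype (17.8 FPKM in wild type and 19.2 in mutant). Among the 14 markers of mature megakaryocytes Cmtm5, P2ry12 and Myl9 stayed below 1 FPKM in every library, and Tubb1, the platelet tubulin, had 0.944 to 4.40 FPKM. Endothelial cells also make Vwf and Selp; the 15 endothelial markers summed to 224 to 239 FPKM in wild type and 211 to 243 FPKM in mutant libraries, some of them (Tie1, Icam2, Tek, Egfl7) also expressed by HSCs. Of these markers, Cdh5, Sox17 and Ptprb stayed below 1 FPKM in all 6 libraries, while Plvap had 0.196 to 16.1, Cldn5 1.48 to 7.08, Kdr 1.32 to 3.76 and Stab2 0 to 1.49 FPKM. Plvap, Cldn5, Kdr, Stab2 and Icam2 were each highest in wild-type replicate 2, where Selp but not Vwf was also highest. Other endothelial markers were not: Emcn (15.8 FPKM), Sox18 (13.3) and Tek (37.2) were highest in wild-type replicate 3, as was Vwf. Flt4 was highest in wild-type replicate 1, Tie1 and Pecam1 in mutant replicate 1, and Egfl7 in mutant replicate 3. The part of these markers in the levels of Selp and Vwf was not tested. Y-linked reads appeared in replicate 1 of each genotype (6527 wild-type and 6137 mutant reads) and numbered 2 or fewer in every other library. The 15 neutrophil markers summed to 94.3, 398 and 861 FPKM in wild-type replicates 1, 2 and 3 and to 256, 896 and 1201 FPKM in mutant replicates 1, 2 and 3. Within this sum S100a8 ranged from 11.8 to 445 FPKM and S100a9 from 11.9 to 403 FPKM. Prtn3 had 58.9 FPKM in wild-type replicate 1 and ranged from 27.5 to 71.6 FPKM.

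No difference between the genotypes exceeded the spread of the libraries in the 9 tested genes. With edgeR's quasi-likelihood test and adjustment over all 14443 genes tested, 0 of 9 passed an adjusted p of 0.05, where 0.0208% of all genes did (0.00692% higher and 0.0138% lower). At an unadjusted p under 0.05 the count was also 0 of 9, against 3.99% of all genes, and DESeq2, which called 0.263% of all genes (0.125% higher and 0.139% lower), and limma on log2 FPKM called 0 as well. The wild-type and mutant libraries overlapped for each of the 9 genes, while 10.3% of all tested genes had groups that did not overlap. Lower fitted values in the mutant were found for 7 of 9 (49.9% of all genes), with a median log2 fold change of -0.20 against 0.000296 over all genes tested. The direction of Selp and of Gp1ba turned when single libraries were left out, as given below. In bulk libraries, fewer cells carrying a transcript and less of it per cell cannot be told apart.

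Levels per gene length ranged from a gene near the top of the transcriptome to a gene not detected. In the plot of FPKM by library Nfe2 stood highest and Clec1b lowest of the detected genes. The order of the means over 6 libraries was Nfe2 (365.5 FPKM), Pf4 (64.1), Gp9 (48.5), Vwf (11.5), Gp1ba (7.30), Selp (6.84), Ppbp (4.65), Gp1bb (3.57), Clec1b (0.281) and Gp6 (0). The ranges of neighbours did not overlap between Nfe2 and Pf4, between Gp9 and Vwf, or between Gp1bb and Clec1b. They overlapped for Pf4 and Gp9, where 5 of 6 libraries had Pf4 higher, and for Gp1ba and Selp, where only 2 of 6 had Gp1ba higher. Selp and Ppbp, and Ppbp and Gp1bb, each kept their order in 4 of 6 libraries. Vwf was above Gp1ba in 6 of 6 libraries although their ranges overlapped.

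**Figure D1:**
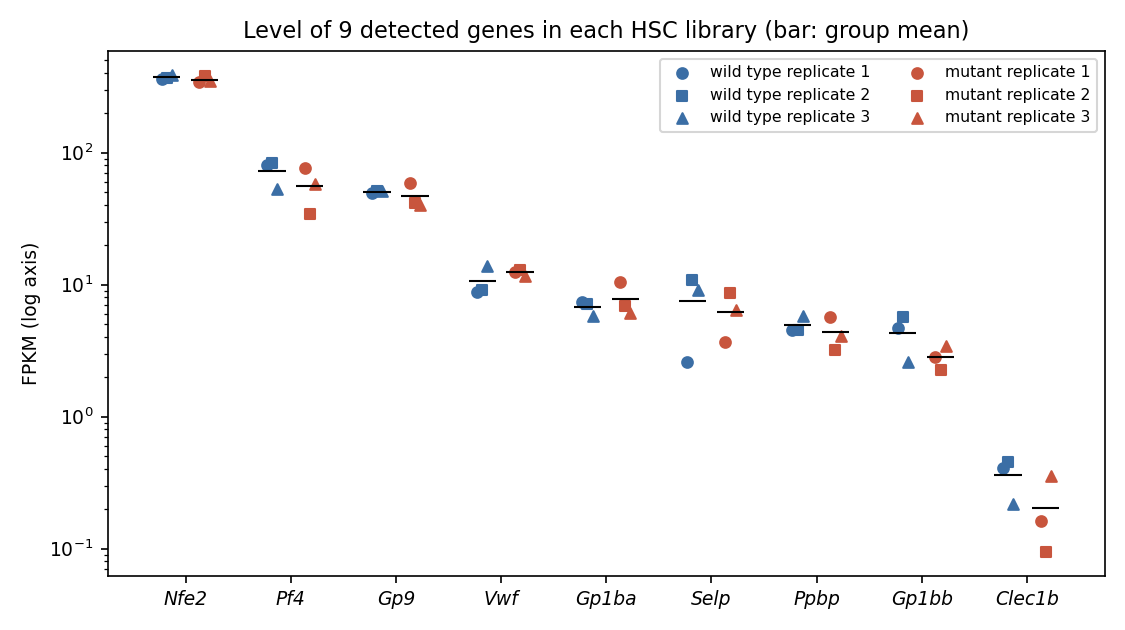
FPKM on a log axis for the 9 detected genes, ordered by mean, with a point for each library (blue wild type, red mutant) and a bar at each group mean, n = 3 per group. Nfe2 lies between 343 and 389 FPKM in all 6 libraries, the points of both groups overlap for every gene, and Gp6, listed at 0, is not drawn.

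Nfe2 was the most abundant and the steadiest of the genes. Nfe2 (ENSMUSG00000058794, mm10 chromosome 15, 103248212 to 103258403, minus strand, protein-coding) encodes the p45 subunit of NF-E2, which pairs with small Maf proteins to switch on late megakaryocyte genes. It had 363, 368 and 389 FPKM in wild-type replicates 1, 2 and 3 and 343, 379 and 351 FPKM in mutant replicates 1, 2 and 3. The groups overlapped, with mutant replicate 1 the lowest and wild-type replicate 3 the highest. Means were 373.5 ± 14.0 and 358 ± 18.8 FPKM (SD, n = 3 each), and 99.4% of the 20422 genes detected in any library were lower than Nfe2. Its log2 fold change was -0.06 (SE 0.08), and the 95% interval of -0.25 to 0.13 corresponds to mutant levels between 0.841 and 1.10 times wild type (edgeR adjusted p = 0.999). Leaving out 1 library gave values from -0.11 (mutant replicate 2) to -0.015 (mutant replicate 1). The spread of Nfe2 within the groups was larger than that of only 5.0% of the genes tested. Its small Maf partners were much lower per length: Nfe2 exceeded Mafk 13.5-fold to 17.4-fold and Mafg 40.8-fold to 58.1-fold in FPKM within single libraries.

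Among the granule and secreted proteins, Pf4 was abundant and variable. Pf4 (ENSMUSG00000029373, chromosome 5, 90772435 to 90773381) encodes platelet factor 4, a chemokine that HSCs are known to respond to. Its levels were 80.0, 83.6 and 53.2 FPKM in the wild-type replicates and 75.8, 34.1 and 57.7 FPKM in the mutant replicates. Mutant replicate 2 was the lowest of the 6, and wild-type replicate 3 lay among the mutant values, so the groups overlapped. Group means were 72.3 ± 16.6 and 55.9 ± 20.9 (SD of FPKM, n = 3 per genotype). The fitted log2 fold change was -0.38 (SE 0.29; edgeR adjusted p = 0.999), and the 95% interval of the fold change ran from 0.482 to 1.23. It was -0.13 without mutant replicate 2 and -0.64 without mutant replicate 1.

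Ppbp, which encodes the precursor of neutrophil-activating and connective-tissue-activating peptides, lies 2374 bases upstream of Pf4 on the same strand (ENSMUSG00000029372, chromosome 5, 90768518 to 90770060). It had 4.57, 4.50 and 5.83 FPKM in wild-type and 5.73, 3.22 and 4.07 FPKM in mutant replicates 1, 2 and 3. As for Pf4, mutant replicate 2 was the lowest library and the groups overlapped (log2 fold change -0.20, SE 0.30, 95% interval -0.90 to 0.51). This value was -0.026 without mutant replicate 2 and -0.42 without mutant replicate 1. The pair was not equally abundant: Pf4 exceeded Ppbp in FPKM in every library, 9.14-fold to 18.6-fold. Between 93 and 147 reads per library stood behind Ppbp, against 534 to 1219 behind Pf4.

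Vwf (ENSMUSG00000001930, chromosome 6, 125546774 to 125686679) encodes von Willebrand factor, the large adhesive protein whose expression marks platelet-biased HSCs. It had 8.81, 9.14 and 13.8 FPKM in wild-type and 12.5, 12.99 and 11.7 FPKM in mutant replicates. The 3 mutant libraries lay close together, above wild-type replicates 1 and 2 and below wild-type replicate 3. Means were 10.6 ± 2.76 and 12.4 ± 0.671 FPKM (SD, n = 3 each). A log2 fold change of 0.23 (SE 0.17, 95% interval -0.17 to 0.63) did not pass the test (edgeR adjusted p = 0.999), and it ranged from 0.11 without wild-type replicate 1 to 0.45 without wild-type replicate 3. With 1974 to 3069 reads in each library, Vwf was counted deeply.

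Selp (ENSMUSG00000026580, chromosome 1, 164115264 to 164150026) differed more between replicates than between genotypes. It had 2.58, 10.8 and 9.04 FPKM in wild-type and 3.69, 8.61 and 6.39 FPKM in mutant replicates 1, 2 and 3. Replicate 1 was the lowest library of each genotype, and these are also the libraries with Y-linked reads; the replicate and the sex of the cells cannot be told apart here. Replicate 1 of each genotype also held the lowest summed level of neutrophil markers of its group, whose part in the result was not tested. Not every marker followed the sum: Prtn3 was highest in mutant replicate 1 (71.6 FPKM). The highest library of Selp exceeded the lowest 4.17-fold, and its spread within groups was larger than that of 91.0% of the genes tested. Between genotypes the log2 fold change was -0.26 (SE 0.51, 95% interval -1.44 to 0.93; edgeR adjusted p = 0.999). It was -0.39 without both replicate 1 libraries, a setting chosen after seeing the data, and turned to 0.13 without wild-type replicate 2 and to 0.02 without mutant replicate 1. The lowest value, -0.67, was that without wild-type replicate 1. Selp overlaps the antisense gene Gm16587 and the lincRNA Gm16548, which had at most 11 reads in any library.

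**Figure D2:**
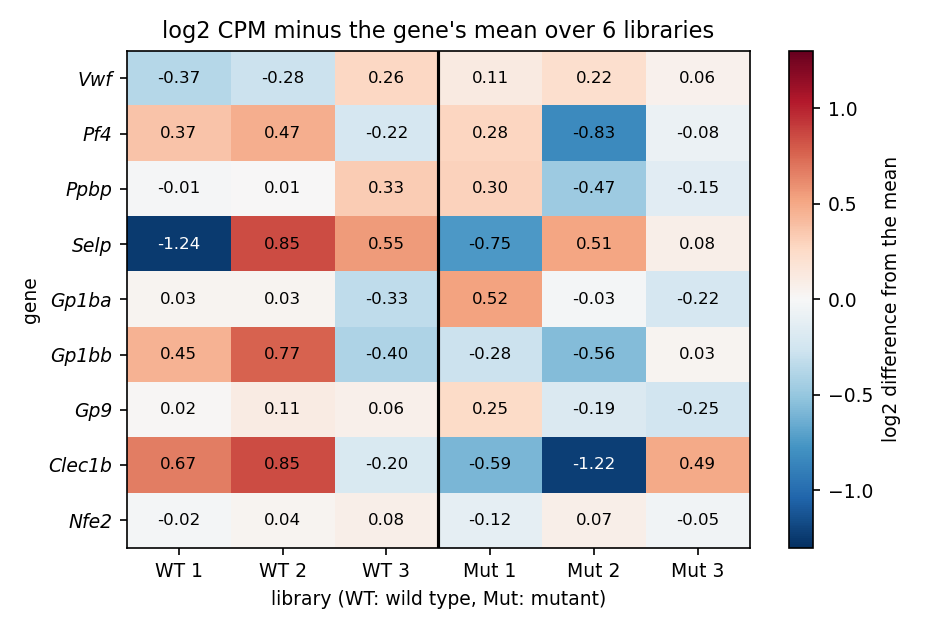
Each gene's log2 CPM (counts scaled to library size) in each library minus its mean over the 6 libraries, with wild-type libraries left of the line and mutant libraries right of it; red is above the mean and blue below. Selp is at -1.24 and -0.75 in the replicate 1 libraries, Nfe2 stays within 0.12 of its mean, and mutant replicate 2 has the lowest values of Pf4, Ppbp, Gp1bb and Clec1b.

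The receptor for von Willebrand factor was represented unequally. Gp9 (ENSMUSG00000030054, chromosome 6, 87778136 to 87779762), the small subunit that stabilises the complex, had 49.3, 50.9 and 50.9 FPKM in wild-type and 58.4, 41.7 and 40.1 FPKM in mutant replicates. Wild-type libraries agreed closely and lay inside the wider mutant range. Means were 50.3 ± 0.933 and 46.7 ± 10.2 FPKM (SD, n = 3 each). This gave a log2 fold change of -0.11 (SE 0.15, 95% interval -0.47 to 0.25), which was -0.28 without mutant replicate 1 and -0.023 without mutant replicate 3. Gp9 ranked above 90.7% of detected genes.

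Gp1ba (ENSMUSG00000050675, chromosome 11, 70639122 to 70642036), the subunit that binds von Willebrand factor, had 7.39, 7.18 and 5.75 FPKM in wild-type and 10.5, 6.93 and 6.08 FPKM in mutant replicates. Mutant replicate 1 stood above the other 5 libraries, which overlapped. The difference was a log2 fold change of 0.20 (SE 0.23, 95% interval -0.33 to 0.74; edgeR adjusted p = 0.999) with all libraries, -0.04 without mutant replicate 1 and 0.35 without mutant replicate 3. Mutant replicate 1 was also the highest library for Gp9.

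Gp1bb (ENSMUSG00000050761, chromosome 16, 18620319 to 18622403, minus strand), the subunit linked to Gp1ba by disulphide bonds, had 4.68, 5.68 and 2.57 FPKM in wild-type and 2.83, 2.25 and 3.43 FPKM in mutant replicates. Wild-type replicates 1 and 2 were above all mutant libraries and wild-type replicate 3 was among them. Means were 4.31 ± 1.59 and 2.83 ± 0.589 FPKM. The fit put the log2 fold change at -0.61 (SE 0.35, 95% interval -1.42 to 0.20; edgeR adjusted p = 0.999), with -0.33 when wild-type replicate 2 was left out and -0.88 when wild-type replicate 3 was. Gp1bb shares 1902 exonic bases on the same strand with Sept5 in the GENCODE M21 annotation of this build. Sept5 was counted with only 5 to 38 reads, and the sources used here do not say how reads in the shared bases were assigned, so the level of Gp1bb is uncertain.

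Within single libraries the FPKM of Gp9 exceeded that of Gp1ba 5.57-fold to 8.85-fold, with means of 7.53 ± 1.16 in wild type and 6.06 ± 0.513 in mutant cells (SD, n = 3 each). Gp9 exceeded Gp1bb 8.96-fold to 20.7-fold, subject to the uncertainty just given, and exceeded Gp5, the fourth subunit, 2.37-fold to 5.91-fold. Reads were counted for all 4 subunit genes in every library, with Gp9 the highest in FPKM in each. For Gp1bb both presence and rank are subject to the bases shared with Sept5. Gp5 had 15.5, 21.5 and 8.61 FPKM in wild-type and 12.3, 13.5 and 9.03 FPKM in mutant replicates (log2 fold change -0.40, SE 0.32).

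**Figure D3:**
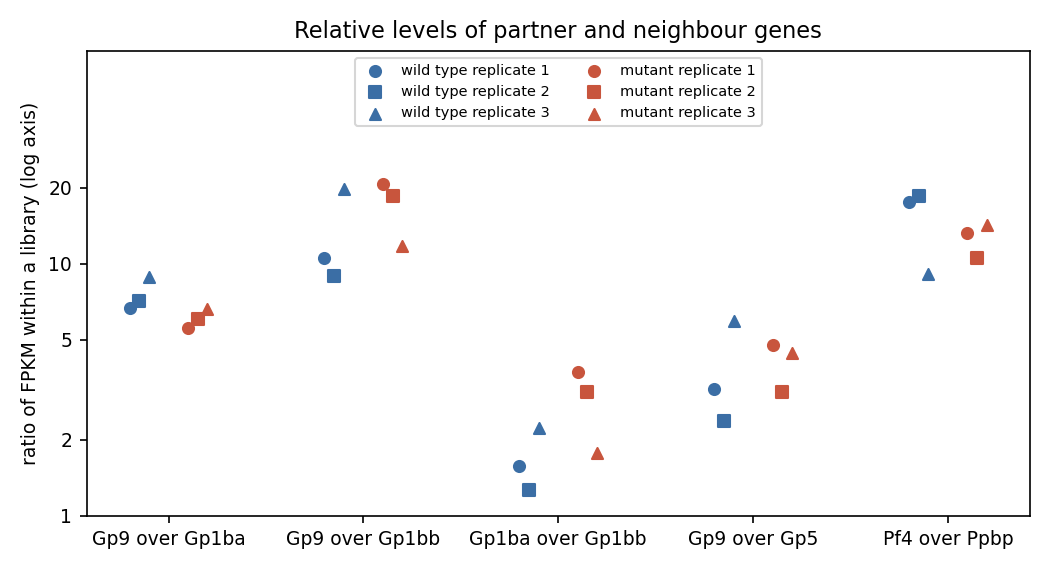
Ratio of the FPKM of 2 genes within each library, on a log axis, with blue points for wild type and red for mutant, n = 3 per group. Gp9 over Gp1ba lies between 5.57 and 8.85 in the 6 libraries and Pf4 over Ppbp between 9.14 and 18.6, with the groups overlapping for Gp9 over Gp1bb, Gp1ba over Gp1bb, Gp9 over Gp5 and Pf4 over Ppbp; for Gp9 over Gp1ba all mutant values are below all wild-type values.

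For Gp9 over Gp1ba all 3 mutant ratios were below all 3 wild-type ratios, although only narrowly (6.59 in mutant replicate 3, 6.66 in wild-type replicate 1). No test was run on this ratio, which was picked out after its values were seen.

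Both activating receptors were near or at the limit of detection. Clec1b (ENSMUSG00000030159, chromosome 6, 129397297 to 129409335), the podoplanin receptor CLEC-2, had 45, 49 and 22 reads in wild-type and 16, 11 and 38 reads in mutant replicates, or 0.408, 0.453 and 0.217 FPKM and 0.161, 0.0947 and 0.352 FPKM. Mutant replicate 2 was lowest and wild-type replicate 2 highest, while mutant replicate 3 lay among the wild-type values. Its log2 fold change of -0.82 had an SE of 0.62, and the 95% interval of -2.26 to 0.61 covers mutant levels from 0.209 to 1.52 times wild type. It was -0.48 without mutant replicate 2 and -1.51 without mutant replicate 3. Clec1b shares 184 exonic bases with its neighbour Clec9a on the same strand, which had 11 to 50 reads. Gp6, the collagen receptor glycoprotein VI (ENSMUSG00000078810, GENCODE M21 chromosome 7, 4363965 to 4397744), was listed at 0 FPKM in all 6 libraries. A level of 3 reads in a library, the limit that a count of 0 allows, would be 0.112 to 0.132 CPM.

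**Figure D4:**
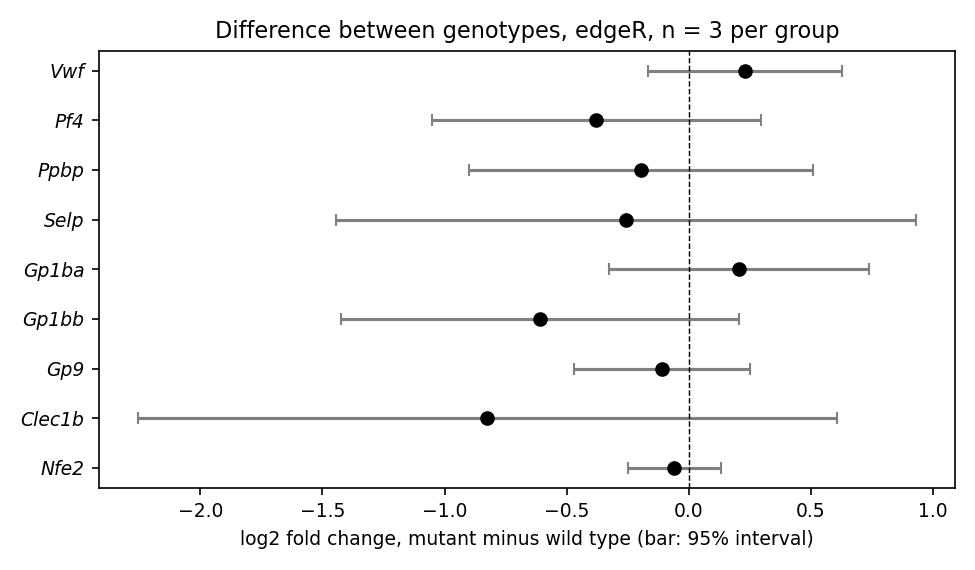
The log2 fold change (mutant minus wild type) of the 9 tested genes from edgeR, with bars for the 95% interval and a dashed line at 0, n = 3 per group. Every interval includes 0; the narrowest is that of Nfe2, -0.25 to 0.13, and the widest that of Clec1b, -2.26 to 0.61.

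Across libraries the genes did not move as a block. Of the 9 detected genes, 4 were lowest in mutant replicate 2 (Pf4, Ppbp, Gp1bb and Clec1b) and 4 were highest in wild-type replicate 2 (Pf4, Selp, Gp1bb and Clec1b). For Vwf mutant replicate 2 was instead the second highest library. The share of all tested genes with these extremes is not given here, so the counts are no result about these genes. Gp1bb and Selp had the widest ranges of log2 CPM among the genes with a mean of at least 1 FPKM. The named genes most like Gp1bb over the 6 libraries, out of 10725 with at least 1 FPKM, were Cd36, Dok2 and Nkg7, at root mean square distances of 0.16, 0.16 and 0.17 between centred log2 CPM profiles. Those most like Selp were H2-DMb2, Cd52 and Mrc1, at 0.32, 0.32 and 0.34. Mrc1, a macrophage receptor, is among the markers listed for monocytes and macrophages and stayed between 0.820 and 2.34 FPKM. Summed, these 10 markers had 36.8 to 42.7 FPKM in wild-type and 13.5, 39.5 and 50.1 FPKM in mutant replicates 1, 2 and 3; their part in the spread of Selp was not tested.

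Other genes of the megakaryocyte and platelet programme were examined next. A list of 92 other genes was grouped by role, of which 89 were in the count table and 84 passed the filter. None passed an adjusted p of 0.05 in edgeR's quasi-likelihood test; those with an unadjusted p under 0.05 were 3 higher (Itgb3, Ctla2a and Fhl1) and 3 lower (Itga2, Tuba8 and Zfpm1), against 2.28% and 1.70% of all genes tested. Fitted values were higher in the mutant for 46 genes and lower for 38, with a median log2 fold change of 0.02. DESeq2 called 1 of the 84 lower, Itga2, where it called 0.139% of all genes with an adjusted p lower.

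The integrin genes Itga2 and Itgb3 had the 2 smallest unadjusted p of that list. Itga2, the alpha 2 subunit of the platelet collagen receptor, had 2.11, 1.64 and 1.84 FPKM in wild-type and 0.666, 0.772 and 0.784 FPKM in mutant replicates, without overlap. Its log2 fold change was -1.32 (SE 0.26; edgeR adjusted p = 0.591, DESeq2 adjusted p = 0.0106), and the adjusted p ranged from 0.0106 to 1.0 over 16 alternatives. Itgb3, the beta 3 subunit of the fibrinogen receptor, had 13.9, 15.8 and 12.8 FPKM against 16.3, 30.4 and 32.1 FPKM (adjusted p = 0.999 by edgeR for a log2 fold change of 0.90 with SE 0.25), with mutant replicate 1 barely above the wild-type values. The partner of Itgb3, Itga2b, had 38.1 ± 10.02 FPKM in Ramp1+/+ cells and 31.9 ± 10.7 FPKM in those of the mutant, so that Itga2b exceeded Itgb3 2.10-fold to 3.01-fold in wild-type libraries and stood at 2.60, 0.689 and 1.01 times Itgb3 in mutant replicates 1, 2 and 3. The tetraspanins Cd63 and Cd9 and the adhesion molecule Esam were the most abundant of the 12 tested surface genes, at log2 fold changes of 0.16, -0.04 and 0.07; 4 of the 12 had higher and 8 lower values in the mutant.

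Of 23 tested agonist receptors and signalling genes, 12 had higher and 11 lower values (median log2 fold change 0.02). The kindlin gene Fermt3 had a log2 fold change of -0.12 and Rgs18, a regulator of G protein signalling, 0.13. Tbxa2r, the thromboxane receptor, had 15.2, 16.5 and 16.8 FPKM against 15.7, 8.40 and 9.99 FPKM (log2 fold change -0.52, SE 0.23), with mutant replicate 1 among the wild-type values, and Pdzk1ip1 had 0.19. Fcer1g, the signalling chain that Gp6 needs, was present at 45.1 ± 4.49 and 55.9 ± 17.6 FPKM although Gp6 was listed at 0.

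Among 14 other granule and secreted proteins, 10 had higher and 4 lower values (median log2 fold change 0.07). The proteoglycan core Srgn had 467 ± 26.7 and 494 ± 4.59 FPKM, and Mmrn1 (multimerin, an alpha granule protein) 123.3 ± 12.8 and 151 ± 37.9 FPKM, with log2 fold changes of 0.08 and 0.29. Vipas39 had 0.06. Timp3, an inhibitor of metalloproteinases, had 0.61 (SE 0.30), with 6.46 FPKM in mutant replicate 1 and 14.3 and 15.8 FPKM in mutant replicates 2 and 3. The widest difference in this role, a log2 fold change of 1.89, was that of Thbs1 (SE 1.29, unadjusted p = 0.184), which encodes thrombospondin 1 and was named after its value was seen. It had 0.890, 4.38 and 10.1 FPKM in wild-type and 1.04, 50.2 and 4.77 FPKM in mutant replicates, so that mutant replicate 2 stood alone and the other mutant libraries lay within the wild-type range.

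In the cytoskeleton and platelet release group 12 of 15 genes had higher and 3 lower values (median log2 fold change 0.08). Ctla2a, a cysteine protease inhibitor gene, had 290, 235 and 223 FPKM in wild-type and 323, 333 and 314 FPKM in mutant replicates, without overlap (log2 fold change 0.38, SE 0.11; edgeR adjusted p = 0.999). Tuba8, an alpha tubulin, had 10.9, 12.6 and 5.92 FPKM against 4.44, 3.73 and 7.46 FPKM (log2 fold change -0.91, SE 0.36), where wild-type replicate 3 lay among the mutant values as it did for Gp1bb and Pf4. Flna and Trpc6 had 0.07 and 0.15.

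Of 20 transcription factors beside Nfe2, 8 had higher and 12 lower values (median log2 fold change -0.03). Lmo2, Gata2 and Fli1 were the most abundant, at 593 ± 58.8, 131 ± 5.66 and 88.9 ± 10.9 FPKM in wild-type and 553 ± 126, 129 ± 16.0 and 86.2 ± 6.82 FPKM in mutant libraries, with log2 fold changes of -0.10, -0.02 and -0.05. Zfpm1, the cofactor of Gata1 known as FOG1, had 51.8, 17.1 and 5.97 FPKM in wild-type and 7.89, 6.71 and 7.72 FPKM in mutant replicates. Its log2 fold change of -1.74 (SE 0.64; edgeR adjusted p = 0.999) was -0.66 without wild-type replicate 1 and -2.21 without wild-type replicate 3, and wild-type replicate 3 was below every mutant library. Gata1, named after its values were seen, had 17.8, 17.6 and 9.47 FPKM against 6.48, 9.52 and 13.7 FPKM (log2 fold change -0.59, SE 0.34). As for Gp1bb and Pf4, wild-type replicates 1 and 2 had the 2 highest values of Gata1 and wild-type replicate 3 lay among the mutant libraries. The mutant libraries differed in order: Gata1 was lowest in mutant replicate 1, but Pf4 (34.1 FPKM) and Gp1bb (2.25 FPKM) in mutant replicate 2. Ets1 had 0.41 (SE 0.20).

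**Figure D5:**
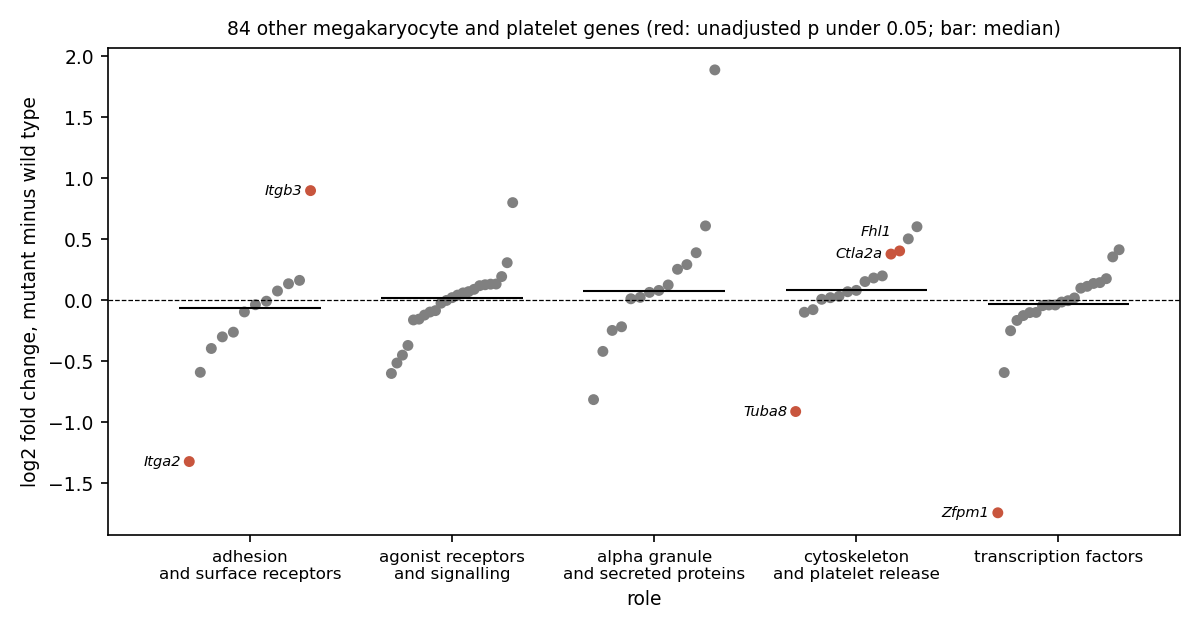
The log2 fold change (mutant minus wild type, edgeR, n = 3 per group) of 84 other megakaryocyte and platelet genes by role, with a point for each gene, red where the unadjusted p is under 0.05 and a bar at the median of the role. Medians lie between -0.07 and 0.08, the red points are Itgb3, Ctla2a, Fhl1, Itga2, Tuba8 and Zfpm1, and none passes the adjusted threshold.

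In the authors' deposited table the 9 genes in it had log2 fold changes between -0.83 (Clec1b) and 0.23 (Vwf) and an adjusted p of 1.0 each. That comparison used the same reads as the fit described here.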

How the data were processed

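RNA was sequenced from sorted mouse HSCs in 6 libraries, grouped by genotype per the labels. Per the submitters' processing notes the tools were STAR, HTSeq 0.6.1, CASAVA and DESeq2, listed without roles, on build mm10; the annotation release and strand setting are not given in the sources used here. Raw read counts per gene were deposited by the authors with FPKM (scaled by the authors for gene length and counted reads), a size-factor-normalized signal (deposited, not used here), and the authors' log2 fold changes and p-values. The deposited count table holds only genes with reads in mutant replicate 1 or 2; 2054 detected genes lie outside it. FPKM for all members came from the deposited FPKM table.

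Counts were fitted with edgeR 4.0.16 (TMM, filterByExpr, quasi-likelihood F test, two-sided, Benjamini-Hochberg over 14443 genes, threshold 0.05) in R 4.3.3. Standard errors were taken as |log2 fold change|/√F, and 95% intervals use the t distribution with the fit's degrees of freedom. Log2 CPM used a prior count of 2. An exact two-sided permutation test of mean log2(FPKM + 0.1), 3 against 3 libraries, gave p between 0.2 and 0.9 for the 9 detected genes; the smallest it allows is 0.1. Alternatives were other scalings and filters, DESeq2 1.42.0, limma 3.58.1 on log2 FPKM, libraries left out, Y-linked reads (over 100 in a library) as a covariate, and a replicate block. The fit was also run on simulated data, and the share of changed genes that it recovered there is not given here.

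The 10 members, the lists and the first alternatives were chosen with earlier results of these data known. Named from the other lists were the 3 genes with the highest mean FPKM and the 2 with the smallest unadjusted p at a mean of at least 1 FPKM in each role, and the 3 genes most like each of the 2 most variable members. Of the pathway genes, 90 were matched by name and 2 by identifier. Marker lists of HSCs, megakaryocytes, endothelial, erythroid, neutrophil, B and T, monocyte and mast cells were summed per library: erythroid markers had 1094 to 1329 FPKM (mostly Car2, 994 to 1221), B and T cell markers 37.5 to 51.6 (mostly Cd79b, 31.8 to 47.1), and mast cell and basophil markers 1.23 to 4.20. The values of 1 gene in the lists are not reported here.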

Additional observations from a re-analysis of the deposited data

How the results depend on the processing

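The count of 0 members past the threshold held under each of 16 alternatives in both directions, and 141 of 144 refitted member values kept their direction. The 3 others arose when a library was left out. Selp then ranged from -0.67 (without wild-type replicate 1) to 0.13 (without wild-type replicate 2), and was 0.02 without mutant replicate 1. Gp1ba ranged from -0.041 (mutant replicate 1 left out) to 0.35 (mutant replicate 3 left out). Among the other megakaryocyte and platelet genes, DESeq2 called 1 lower gene, Itga2 (log2 fold change -1.33), and each other alternative called 0. Over all genes, 1 was called higher and 2 lower. DESeq2 called 18 higher and 20 lower, limma with a pseudocount of 0.1 called 2 higher and 1 lower, limma with a pseudocount of 1 called 2 higher, and the fit without a filter on low counts called 2 higher. With the replicate block 1 gene was called lower, as with the Y-linked covariate and, added after seeing the data, without both replicate 1 libraries. Leaving out each library in turn gave 1 to 2 higher and 1 to 4 lower genes. No label says whether the replicate numbers pair the samples. Deviations from the group means correlated at 0.14, 0.0018 and -0.094 for pairs 1, 2 and 3. Libraries with unlike numbers correlated at -0.13 to 0.15. With 3 libraries per group these values cannot decide whether the samples are paired, and both replicate 1 libraries held Y-linked reads. The block changed no call among the members. The cause of the shifts between alternatives was not tested. Clec1b rested on 11 to 49 reads per library, and Gp6, listed at 0, was not tested.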
